A study of Mus musculus with 8 samples.

Results

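The comparison set all 7 arrays of livers from FEAT transgenic mice against the 1 array of a wild-type liver, 8 of the 8 arrays in the series. The FEAT arrays were 6 hepatocellular carcinomas, called tumours 1 to 6 here, and 1 liver without tumour from a FEAT transgenic mouse, called the FEAT normal liver. Each array measured genomic DNA by comparative genomic hybridisation on a 244A mouse oligonucleotide array. Test DNA carried the dye Cy3, and a common reference, liver DNA of a wild-type male C57BL/6 mouse aged 6 months, carried Cy5. All test mice were male C57BL/6. The tumour-bearing mice were 16, 21, 20, 18.5, 22 and 12 months old for tumours 1 to 6, and tumour 4 came from the only animal whose labels give a lung metastasis. The FEAT normal liver was taken at 13 months of age, and the wild-type test liver at 6 months. The labels do not say which promoter drives the transgene, how many founders or lines were used, or whether the wild-type test DNA and the reference DNA came from the same mouse. Genotype, age and any difference between breeding stocks cannot be told apart with these arrays. Titles of tumours 2 and 3 share a number, as do those of tumours 4 to 6, but the labels do not say what it stands for. Beyond this, nothing in the labels says how the mice were related. P-values measure the spread between these samples and take the FEAT arrays as unrelated. In bulk liver DNA, a change in some of the cells and a smaller change in all of them cannot be told apart.

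Values are log2(test/reference), centred on the median autosomal probe of each array, so that 0 is the level of the reference and -1 is a ratio of 0.5. Of 220065 autosomal probes, 214235 had a value on all 8 arrays, and the median distance between neighbouring probes was 7.85 kb. The spread between neighbouring probes (a robust SD) ran from 0.22 to 0.49 over the arrays and was widest in tumour 4. On all 8 arrays the median log2 ratio of the brightest probes was below that of the dimmest. The span of medians over 20 bins of brightness, taken on the wild-type array, was 0.22 in the wild-type array and between 0.40 and 1.50 in the FEAT arrays. The span was thus wider in each FEAT array than in the wild-type array. Its part in the differences below was not tested, and the levels of the regions described below are also given with the median of each probe's brightness bin taken off, which is called removal of the brightness trend. The deposited values of the FEAT normal liver repeated 1 constant at 6809 spots, 2.48% of its autosomal probes, and those of tumour 3 repeated another at 305 spots. These probes were dim, at a median brightness percentile of 2.23 and 0.903. No other array repeated a value at more than 4 spots. With the constants taken as missing, an alternative chosen after seeing the data, the same 3 shared regions were found.

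**Figure D1:**
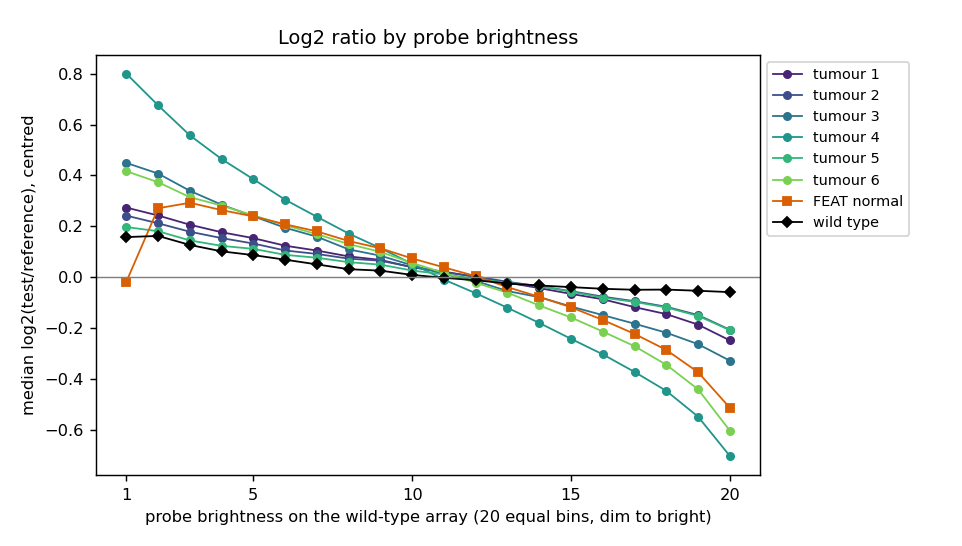
Median centred log2(test/reference) of autosomal probes (vertical axis) in 20 equal bins of probe brightness on the wild-type array, dim to bright (horizontal axis), 1 line per array. The wild-type line spans 0.22 and the line of tumour 4 spans 1.50.

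Copy-number differences between animals can be inherited through the germline, and others arise in single tissues or tumours. Inbred mouse colonies are known to differ at loci where similar gene copies lie side by side, because copies in tandem can be lost or gained by unequal exchange. An oligonucleotide probe in such a locus reads the sum of all copies that match it. FEAT is a name of the Mettl13 gene, a methyltransferase gene that the array lists as 5630401D24Rik.

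The 10 oligonucleotides on which the results turn are given 5′ to 3′ in lower case, as the array's own design lists them, with positions on the array's own annotation, for which the labels name no genome build. The first 4 bracket the loss on chromosome 14. They are the last probe before it, at chr14:64121782-64121831 in Slc25a37, the first lost probe, at chr14:64128347-64128406 in Slc25a37, the last lost probe, at chr14:64327401-64327455 in Loxl2, and the next probe, at chr14:64341590-64341649 in AK006177.
A_53_P149316: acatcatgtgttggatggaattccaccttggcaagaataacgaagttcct
A_67_P08151842: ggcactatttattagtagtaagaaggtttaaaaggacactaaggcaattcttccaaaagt
A_53_P165167: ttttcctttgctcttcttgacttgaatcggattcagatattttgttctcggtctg
A_53_P131478: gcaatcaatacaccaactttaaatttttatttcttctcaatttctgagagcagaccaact
The next 3 show the chromosome 7 probe with the lowest ratio shared by the FEAT livers, at chr7:119782500-119782559, after its neighbour at chr7:119748865-119748924 and before its neighbour at chr7:119808404-119808463. None of the 3 has a gene name on the array.
A_67_P06352462: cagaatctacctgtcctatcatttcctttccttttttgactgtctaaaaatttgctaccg
A_67_P01625092: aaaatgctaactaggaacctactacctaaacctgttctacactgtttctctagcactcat
A_67_P06352568: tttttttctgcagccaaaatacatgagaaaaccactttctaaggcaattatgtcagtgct
The next probe, at chr17:25564128-25564187 in the raised region beside Grm4, was the only probe at least 1 above wild type in all 7 FEAT arrays among probes with the wild-type array within 0.5 of 0.
A_67_P03298907: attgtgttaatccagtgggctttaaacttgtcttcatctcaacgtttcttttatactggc
The last 2 are the probes of 5630401D24Rik, at chr1:162500192-162500247 and chr1:162506803-162506861.
A_53_P152767: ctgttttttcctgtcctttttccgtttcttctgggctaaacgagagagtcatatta
A_53_P163422: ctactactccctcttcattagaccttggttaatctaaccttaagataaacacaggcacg
Of 69 probes (the chromosome 7 probe and those of the regions at Slc25a37 to Loxl2, Grm4, Tcte3, AK007175 and C330003B14Rik), 0 shared a run of 20 bases, on either strand, with another autosomal probe of the array.

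The autosomes were divided into 44005 windows of 5 neighbouring probes to find what all 7 FEAT livers carry and the wild-type liver lacks. A window counted as shared when each FEAT array differed from the wild-type array by at least 0.4 in 1 direction and the wild-type array lay within 0.2 of 0. The FEAT livers shared 8 windows, 5 lower (0.0114% of all windows) and 3 higher (0.00682%). The 8 windows formed 3 regions, a loss on chromosome 14 from Slc25a37 to Loxl2, a gain at Tcte3 on chromosome 17 and a gain beside Grm4 on chromosome 17. At the margin of the rule, the smallest difference of an array inside it was 0.44, in the FEAT normal liver at AK015366. The 3 windows that 6 of the 7 arrays reached were Fndc3b, where tumour 2 differed by 0.13, 4930431L04Rik, where tumour 2 differed by 0.34, and the window at the edge of the chromosome 14 loss in Slc25a37, where tumour 4 differed by -0.28. With the wild-type array within 0.2 of 0, the number of lower windows fell from 3511 in 1 FEAT array to 8 in 5 arrays and 1 in 6 arrays, and stood at 5 in all 7 arrays. The higher windows fell from 3922 in 1 array to 28 in 5 and 2 in 6, and stood at 3 in all 7. Windows in which the wild-type array lay beyond 0.4 and all 7 FEAT arrays within 0.2 of 0 numbered 6. This rule asks for 7 arrays near 0 in place of 1 and sets no difference of 0.4. The 6 windows therefore cannot be set against the 8 shared ones.

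**Figure D2:**
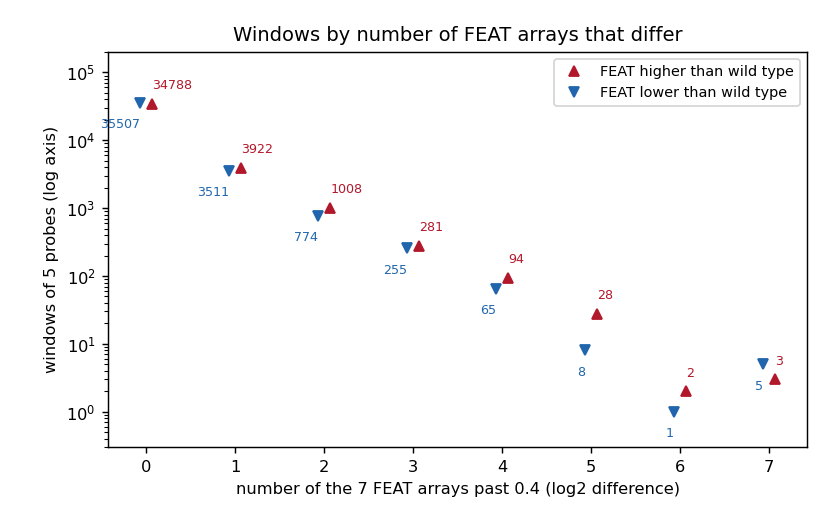
Number of 5-probe windows (log axis) by the number of FEAT arrays that differed from the wild-type array by at least 0.4 (horizontal axis), for windows with the wild-type array within 0.2 of 0. Upward triangles are windows higher in FEAT livers and downward triangles windows lower in them, with 3 and 5 windows at all 7 arrays.

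**Figure D3:**
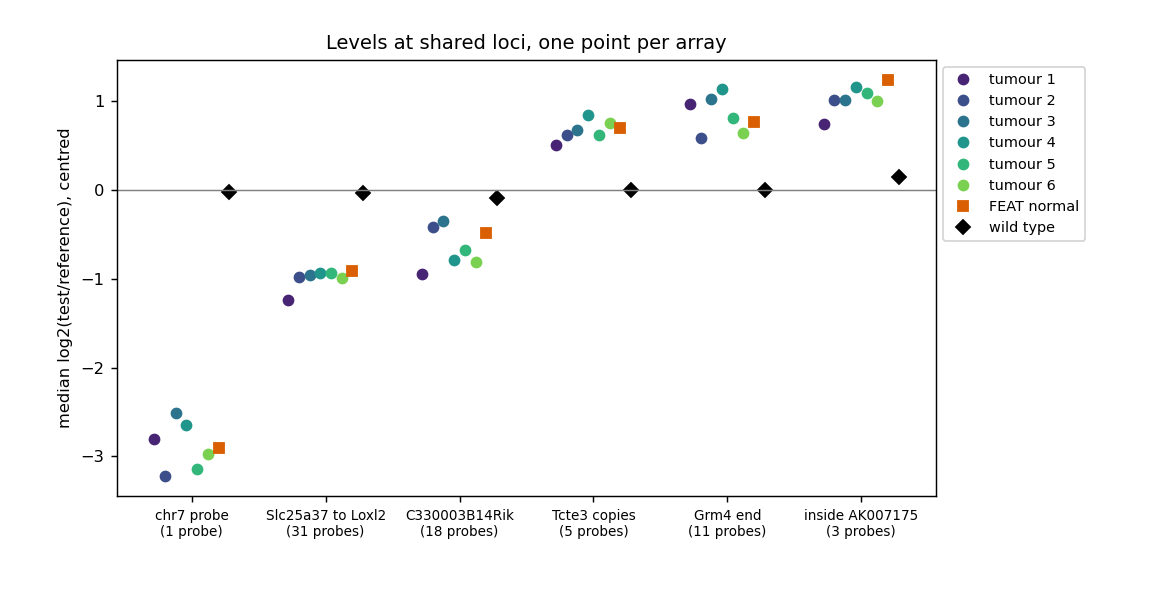
Median centred log2(test/reference) at 6 loci (vertical axis), 1 point per array, with circles for tumours, a square for the FEAT normal liver and a diamond for the wild-type liver. At the chromosome 14 loss the 7 FEAT arrays lie between -1.24 and -0.91 and the wild-type array at -0.03.

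Of the 3 shared regions, the one with the largest difference was the loss on chromosome 14. It took in the end of Slc25a37, the mitochondrial iron importer mitoferrin-1, then D930020E02Rik, which RefSeq now names Synb, an envelope gene of retroviral origin that acts in placental cell fusion. It went on through Entpd4, a nucleotide-hydrolysing enzyme of the Golgi and lysosome, to Loxl2, a lysyl oxidase that cross-links collagen. Lost probes reached from chr14:64128347 to chr14:64327455, which is 199 kb and 31 probes. The next probes outside lay 6.52 kb before and 14.1 kb after. The median log2 ratio over the 31 probes was -1.24, -0.98, -0.96, -0.94, -0.93 and -0.99 in tumours 1 to 6 and -0.91 in the FEAT normal liver. It was -0.03 in the wild-type liver. The FEAT arrays did not overlap the wild-type array, as the rule for shared windows required, and tumour 1 was the lowest. Their mean was -0.99 ± 0.11 (SD, n = 7), a mean ratio of 0.50 to the reference, against 0.98 in the wild-type liver.

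The FEAT livers were closer to each other once the level of the chromosome around the loss was taken off. When each array's running median of the neighbouring probes was subtracted, the 7 FEAT values were -0.92, -0.91, -0.89, -0.84, -0.89 and -0.92 in tumours 1 to 6 and -0.87 in the FEAT normal liver, against -0.02 in the wild-type liver. Their SD was 0.03, against 0.11 before, and they stood for ratios of 0.53 to 0.56 to the reference. The liver without tumour was therefore within the range of the 6 tumours. Removing the brightness trend gave values from -1.15, in tumour 1, up to -0.67, in tumour 4, while the wild-type value was 0.00. The 15 brighter probes of the region had a FEAT median of -1.15 and the 16 dimmer ones of -0.79, while the wild-type array was at -0.05 and -0.01.

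Segmentation of each array by penalised least squares placed the same left end in all 7 FEAT arrays and the same right end in 6 of them. In tumour 6 the segment ended 1 probe earlier, at chr14:64319540, and the last Loxl2 probe there was at -0.34. All 7 FEAT arrays were below the wild-type array in 29 of the 31 probes, and by at least 0.4 in 23. The last probe before the loss had no value in tumours 2 and 5, held the repeated constant in the FEAT normal liver, lay at -0.67 in tumour 1 and lay between 0.01 and 0.25 in tumours 3, 4 and 6. The wild-type value there was 0.52, above every FEAT value, so this probe does not settle the left border in the comparison with wild type. The probe before that lay between -0.11 and 0.34 in the 7 FEAT arrays and at 0.15 in the wild-type liver. The first lost probe lay between -1.53 and -1.08 in the FEAT livers and at -0.11 in the wild-type liver.

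Gene by gene, the loss covered all 11 Loxl2 probes of the array, with a FEAT median of -0.93 against -0.03 in the wild-type liver. It covered all 6 Entpd4 probes, with -0.91 against -0.05. The single D930020E02Rik probe lay at -1.02 against -0.01. Other transcripts inside it were also low, with BC086315 (3 probes) at -1.14, AK031288 (1 probe) at -1.02 and AK046150 (1 probe) at -1.15. Slc25a37 was lost in part, with 3 of its 7 probes inside at -1.12 and the other 4 at 0.07. The border thus lay inside the stretch that the array assigns to Slc25a37, and the Loxl2 end lay beyond the last Loxl2 probe but before AK006177. Exon and intron limits on this build were not used here.

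**Figure D4:**
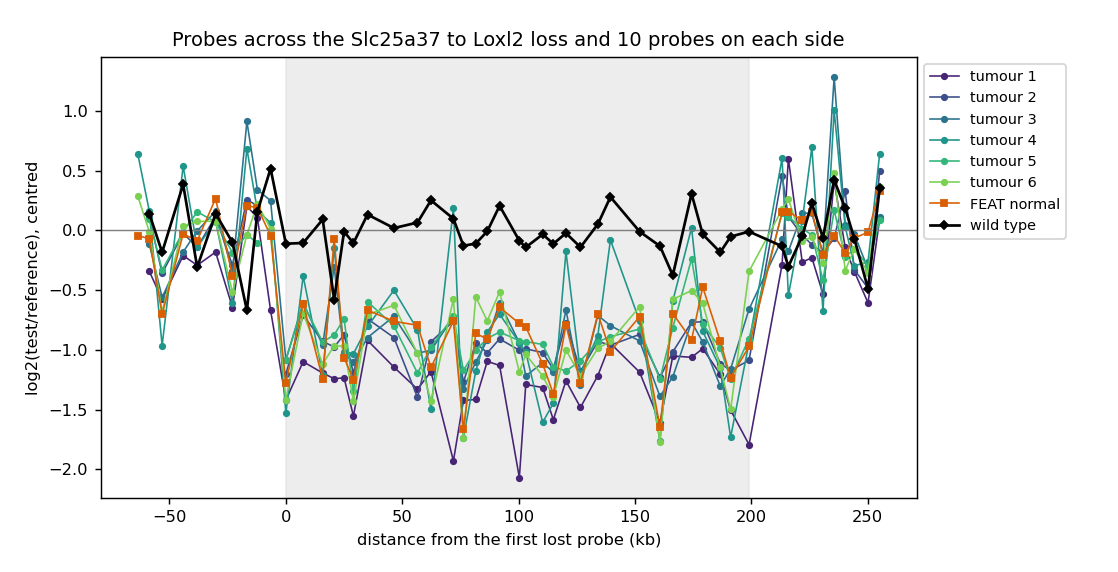
Centred log2(test/reference) of each probe (vertical axis) by distance in kb from the first lost probe (horizontal axis), 1 line per array, over the loss (shaded) and 10 probes on each side. Lines of the 7 FEAT arrays drop at the same probe, and 29 of the 31 shaded probes are below the wild-type line in all 7.

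The RefSeq order of genes on GRCm38.p6, used for names and neighbours only, holds 6 protein-coding genes between Slc25a37 and Loxl2. These are Synb, Entpd4, Gm16867, Gm21451, LOC115488278 and Entpd4b, so that 2 genes of the interval carry the Entpd4 name, where the array has 1.

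The gain beside Grm4 was the second shared region. Grm4 encodes a metabotropic glutamate receptor that couples to inhibitory G proteins and is best known from neurons. Raised probes reached from chr17:25489695 to chr17:25621336, 132 kb and 11 probes, of which 1 lacked a value in tumour 1. The median was 0.96, 0.59, 1.03, 1.14, 0.81 and 0.64 in tumours 1 to 6, and 0.77 in the FEAT normal liver, against 0.00 in the wild-type liver. The groups did not overlap, as the rule for shared windows required, and tumours 2 and 6 were the lowest of the FEAT livers. The FEAT mean was 0.85 ± 0.20 (SD, n = 7), a mean ratio of 1.80. The FEAT values ran from 0.48 to 0.99 with the brightness trend removed, when the wild-type value was -0.14.

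The gain held only 3 of the 13 Grm4 probes, at a FEAT median of 0.86, while the other 10 lay at -0.10 in the FEAT livers and -0.05 in the wild-type liver. Over all its probes Grm4 differed by 0.10 ± 0.15 (SE). The neighbouring transcript AK015366 (1 probe) had a FEAT median of 1.20 against 0.05. Between the array's AK015366 and Grm4 lie probes without a gene name, and these carried 7 of the 11 raised values, counting the probe before AK015366. The segment was called in tumours 1 to 5 and not in tumour 6 or the FEAT normal liver, whose levels of 0.64 and 0.77 lay within the range of the other FEAT arrays. The 6 dimmer probes had a FEAT median of 1.02 and the 5 brighter ones of 0.55, against 0.04 and -0.22 in the wild-type liver. The segment was called in all 7 FEAT arrays once the brightness trend was removed. Here RefSeq has 1 protein-coding gene, Grm4 itself, between Lemd2 and Hmga1.

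The third shared region lay at Tcte3, a gene of a dynein light chain of the sperm tail and t complex, and 9030025P20Rik. It was short, from chr17:13248434 to chr17:13268957, 20.5 kb and 5 probes. The median was 0.51, 0.62, 0.67, 0.85, 0.62 and 0.75 in tumours 1 to 6, and 0.69 in the FEAT normal liver, against 0.00 in the wild-type liver. All 5 probes were above the wild-type array in all 7 FEAT arrays, and the groups did not overlap. The region was chosen for such values, so this is not a further result. The FEAT mean was 0.67 ± 0.11 (SD, n = 7), a ratio of 1.59. The spread among FEAT livers was smallest at the third Tcte3 probe, where they lay between 0.57 and 0.63 and the wild-type array at 0.17. Removing the brightness trend gave 0.45 to 1.01 in the FEAT livers and 0.04 in the wild-type liver.

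The Tcte3 gain was not called as a segment, for which at least 5 probes were needed, in the centred values. After removal of the brightness trend it was called in 6 of the 7 FEAT arrays. The outermost Tcte3 probe before it was raised in both groups, at 0.62 as the FEAT median and 0.47 in the wild-type liver. RefSeq places 5 protein-coding genes between Phf10 and Ermard, and 3 of them, Gm3417, Gm3448 and Tcte3, carry Tcte3 as a symbol or synonym. The array names 1 of these.

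A further 3-probe gain, chosen after its values were seen, was found with windows of 3 probes, with windows shifted by 2 probes and with windows moved along 1 probe at a time. It lay inside AK007175, a cDNA with 89 probes on the array, at chr14:20204130-20223239. The median was 0.74, 1.01, 1.01, 1.16, 1.09 and 1.01 in tumours 1 to 6, and 1.24 in the FEAT normal liver, against 0.15 in the wild-type liver. The FEAT arrays did not overlap the wild-type array, as the rule for shared windows required, and here the liver without tumour was the highest. The other 86 probes of AK007175 had a FEAT median of -0.04. After removal of the brightness trend the FEAT values were 0.80 to 1.14 and the wild-type value 0.10.

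**Figure D5:**
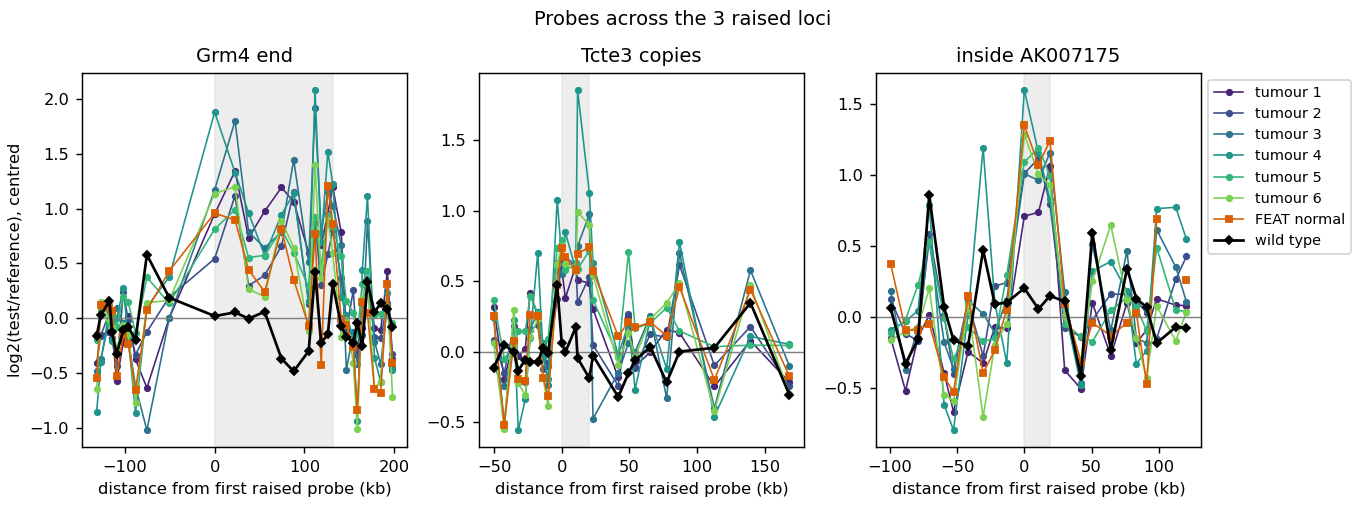
Centred log2(test/reference) of each probe (vertical axes, 1 scale per panel) by distance in kb from the first raised probe, for the Grm4 end, the Tcte3 copies and the stretch inside AK007175, with 10 probes on each side. Shading marks 132, 20.5 and 19.1 kb, in which the FEAT medians are 0.81, 0.67 and 1.01.

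Single probes were examined for differences smaller than a window. All 7 FEAT arrays lay at least 1 below the wild-type array in 7 of 214235 probes (0.00327%) and at least 1 above it in 1 (0.000467%), with the wild-type array within 0.5 of 0. Of the 7 lower probes, 6 were in the chromosome 14 loss. The seventh was the chromosome 7 probe at chr7:119782500-119782559. Its values were -2.81, -3.23, -2.51, -2.64, -3.14 and -2.98 in tumours 1 to 6, and -2.91 in the FEAT normal liver, against -0.02 in the wild-type liver. The FEAT median was thus a ratio of 0.133 to the reference, below the median ratio of each shared region above. The probe 33.6 kb before it lay between -0.09 and 0.93 in the FEAT livers and at 0.34 in the wild-type liver. The probe 25.9 kb after it lay between -0.35 and 0.00 in the FEAT livers and at -0.05 in the wild-type liver. With the brightness trend removed, the chromosome 7 probe ran from -3.08 to -2.10 in the FEAT livers and was at 0.03 in the wild-type liver. The drop was therefore seen at 1 probe and not at either neighbour. The nearest genes named on the array were AK034954, 185 kb before, and AK134588, 281 kb after.

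Ahsg, the gene of the liver-secreted plasma protein fetuin-A, had a single low probe, chosen after its values were seen. It missed the rule for shared probes, since the FEAT normal liver, at -0.83, was less than 1 below the wild-type array. At a threshold of 0.7 it was 1 of 23 lower probes shared by the FEAT arrays. The probe fits below, with and without the variance trend, did not call it. At chr16:22553662-22553713 the FEAT values ran from -1.28 to -0.83, and the wild-type value was 0.16. The other Ahsg probe, at chr16:22557271-22557330, had a FEAT median of -0.16 and a wild-type value of -0.16.

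limma was fitted to all windows, probes and genes as the test of the comparison. With 7 arrays against 1, the lone wild-type array is assumed to vary like the FEAT arrays, and an exact permutation test could not go below 1 in 8. No window passed at an adjusted p of 0.05 (0 of 44005, 0%), and 874 windows (1.99%) had an unadjusted p under 0.05. The variance trend of this fit gave windows with low mean log2 ratios large errors. For the window of AK046150 and Entpd4 limma's SE was 0.75, and the adjusted p was 1.00. Without the trend, an alternative chosen after seeing the data, its SE was 0.18 and the adjusted p 0.104 by limma. The 4 windows from D930020E02Rik to Loxl2 then ranked 1 to 4 of all windows, at the same adjusted p of 0.104, and the Grm4 window ranked 5, at 0.209. The fifth window of the loss, inside Loxl2, ranked 7, at 0.844, and the shared windows at Tcte3 and AK015366 were at 1.00. Without the trend and with the brightness trend removed, 1 window was called by limma, that of AK046150 and Entpd4 (adjusted p = 0.0316).

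The probe fit called 18 of 214235 probes (0.0084%), 13 higher (0.00607%) and 5 lower (0.00233%) in FEAT livers. At an unadjusted p under 0.05 there were 11235 (5.24%). In all 18 the wild-type array was itself beyond 1 in size, and in 14 the FEAT median lay within 0.3 of 0. Taf12, a subunit of the general transcription factor TFIID, led the list with a probe at -2.84 in the wild-type liver and between -0.19 and 0.51 in the FEAT livers (limma, adjusted p = 0.000698). The next were Aytl2, the phospholipid acyltransferase now called Lpcat1 (-2.49 in the wild-type liver, -0.24 to 0.58 in the FEAT livers), and Npl, an enzyme of sialic acid breakdown (-1.85 against 0.02 to 0.73). The BC042410 probe stood at 2.38 in the wild-type liver and between -0.01 and 0.27 in the FEAT livers. In these calls the wild-type array was the one away from the rest.

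The chromosome 7 probe was not among the 18, since its SE under the variance trend was 1791, and the adjusted p was 1.00 by limma. Without the trend its difference was -2.86 ± 0.25 (SE), with an adjusted p of 0.0041 by limma. That fit called 15 probes, in 14 of which the wild-type array was beyond 1. The chromosome 7 probe was the other one. It passed with each FEAT array left out in turn in the fit without the trend. The probe and this fit were chosen after seeing the data, and each fit kept the lone wild-type array, so this adds no separate support.

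The gene fit called 2 of 24567 genes (0.00814%), each measured by 1 probe. They were AK156530 (-1.38 in the wild-type liver, -0.34 to 0.06 in the FEAT livers) and AK140498 (0.91 against -0.48 to -0.08), so here too the wild-type array was the one away from 0. The 7 FEAT values did not overlap the wild-type value in 6424 genes (26.1%). The median difference over all genes was 0.00.

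Related genes of those in the shared regions were measured too, and 0 of them were called. Among 5 lysyl oxidases Loxl2 alone had all 7 FEAT arrays below the wild-type array, as had 13.8% of all genes. Loxl2 differed by -0.94 ± 0.67 (SE) in the main fit. Without the variance trend, an alternative chosen after seeing the data, its SE was 0.14. The median difference of the 5 was 0.04. Among 7 measured Entpd genes the median difference was -0.04, with Entpd4 at -0.90 and Entpd2, on chromosome 2, at -0.82. Entpd2 rested on -0.80 to -0.06 in the FEAT livers and 0.44 in the wild-type liver (limma, unadjusted p = 0.00524, adjusted p = 1.00). Of the mitoferrins, Slc25a37 differed by -0.36 and its paralogue Slc25a28 by 0.02. The 6 measured metabotropic glutamate receptors differed by -0.02 to 0.10. Of the genes known to vary in number or content between C57BL/6 stocks, Nnt, the mitochondrial transhydrogenase, differed by -0.12 and Ide, the insulin-degrading enzyme, by 0.14. Each of these values comes from medians over 10 probes, so a change at only a few of them could leave it unmoved. 2610306H15Rik, the array's name for Fgfbp3, differed by -0.48, from 0.76 in the wild-type liver to between -0.13 and 0.56 in the FEAT livers. None of these was called.

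The wider lists held 0 called genes. The 25 measured liver cancer oncogenes had a median difference of 0.04, with Mdm2, the ubiquitin ligase of p53, the highest at 0.47 and Fgf15 the lowest at -0.34. The 19 tumour suppressors had a median of -0.02, between Keap1 at -0.35 and Stk11 at 0.39. The 26 genes of apoptosis had a median of -0.05 and the lowest was Casp12, at -0.38. The 17 liver identity genes had a median of 0.07, between Apoa1 at -0.43 and Tat at 0.48. At an unadjusted p under 0.05 there were 2, 1, 2 and 3 genes in these lists, beside 967 of all genes (3.94%). Of the multigene families, 585 olfactory receptor genes had a median of -0.02, 68 cytochrome P450 genes of -0.02 and 219 zinc finger genes of 0.02, and 0 genes in these families were called.

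The transgene's own gene, 5630401D24Rik, was higher in all 7 FEAT livers by both probes. At chr1:162500192-162500247 the values were 1.37, 1.56, 3.73, 0.26, 0.59 and 0.44 in tumours 1 to 6, and 2.05 in the FEAT normal liver, against -0.15 in the wild-type liver. At chr1:162506803-162506861 they were 0.37, 0.43, 0.56, 1.07, 1.03, 0.75 and 0.54 in the same order, against 0.15. The groups did not overlap at either probe. Of all genes, 12.4% had all 7 FEAT arrays above the wild-type array. Tumours 4 to 6, whose titles share a number, were the lowest FEAT livers at the first probe and the highest at the second. The second probe was dim, at a brightness percentile of 9.35. Medians of its brightness bin ran from 0.18 to 0.68 in the FEAT arrays, against 0.16 in the wild-type array. In tumour 5 a gain of 0.31 at chr1:150315981-194916389 covered both probes. As a gene it differed by 1.05 ± 0.85 (SE), and limma did not call it (adjusted p = 1.00). No FEAT array was below the wild-type array at either probe, and the part of the transgene in these values was not tested. The labels do not say which of the probes, if any, lies inside the transgene.

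Differences that some FEAT livers carried were taken from segments under 3 Mb, at or beyond 0.2. The FEAT arrays had 22 regions that no wild-type segment of the same direction covered for most of their length, 9 gains and 13 losses. Of these, 1 was called in all 7 arrays (the chromosome 14 loss), 5 in 2 to 5 arrays and 16 in a single array. They include a gain in tumour 1 at chr9:19411195-19974922, which holds a shorter gain called in the wild-type array, at chr9:19459515-19556376. A gain and a loss that overlap on chromosome 13 count as 2 regions. In the wild-type array 6 focal segments were called, each of 5 to 11 probes. After the chromosome 14 loss and Grm4, the region called in most arrays was a loss at C330003B14Rik and 1110051B16Rik, which RefSeq now names Cphx1 and Duxbl1, homeobox genes of the early embryo. It lay at chr14:23599260-23694689 (95.4 kb, 18 probes) and was called in tumours 1, 2, 5 and 6. The medians were -0.95, -0.41, -0.35, -0.79, -0.67 and -0.81 in tumours 1 to 6, and -0.48 in the FEAT normal liver, against -0.09 in the wild-type liver. All 7 FEAT livers were thus lower, but its probes were bright, at a median percentile of 93.7. Without the brightness trend tumour 1 was still the lowest, at -0.76, while tumour 3 and the liver without tumour were both at -0.08, against -0.05 in the wild-type liver. With the running median subtracted instead, tumours 4 and 6 were the lowest, both at -0.77, and tumour 1 was at -0.65. It met the rule for a shared window at a threshold of 0.3, with windows shifted by 2 probes and with windows moved along 1 probe at a time. RefSeq lists 3 Cphx and 3 Duxbl genes between Anxa11 and Slmap.

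The other 3 regions were each called in 2 livers. At A630047E20Rik, which RefSeq names Tbck, a kinase-like gene, the loss at chr3:132493230-132529248 (6 probes) was called in tumours 1 and 5. Its medians were -0.72, 0.16, 0.23, -0.79, -0.60 and -0.68 in tumours 1 to 6, and -0.10 in the FEAT normal liver, against -0.09 in the wild-type liver. Tumours 1, 4, 5 and 6 were low and tumours 2 and 3 and both livers without tumour were near 0, also with the brightness trend removed, when those 4 ran from -0.89 to -0.68.

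At C330014B19Rik, a vomeronasal receptor pseudogene (Vmn2r-ps105 in RefSeq), the gain at chr13:63397574-64355711 (16 probes) was called in tumours 5 and 6. Its medians were 0.13, 0.56, 0.05, -0.24, 0.65 and 0.76 in tumours 1 to 6, and 0.43 in the FEAT normal liver, against -0.02 in the wild-type liver. Tumour 4 lay below the wild-type array and the other 6 FEAT arrays above it. With the brightness trend removed, tumour 4 was at 0.01 and all 7 were above the wild-type array. Part of this stretch went the other way in several tumours. An overlapping loss at chr13:63317620-63903532 (10 probes) was called in tumour 1, at a median of -0.77. Tumours 2, 3 and 4 were low there too, at -0.32, -0.91 and -0.73. Tumours 5 and 6 were high there, at 0.45 and 0.58. The 2 livers without tumour were near 0, the FEAT one at -0.08 and the wild-type one at -0.01. At BC040066, a cDNA, the loss at chr4:121188785-121986047 (15 probes) was called in tumour 1 and the FEAT normal liver, at -0.70 and -0.62. The other tumours lay between -0.34 and -0.18 and the wild-type liver at -0.05. Once the brightness trend was removed, tumour 1 was at -0.54, the FEAT normal liver at -0.22 and the other tumours between -0.12 and 0.19, with 3 of these 5 above the wild-type array.

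AK033168, at chr9:110229378-110280690 (6 probes), was called in tumour 2 alone, and is given, chosen after its values were seen, since the FEAT normal liver was higher. Its medians were 0.07, 0.69, -0.01, 0.11, 0.33 and 0.69 in tumours 1 to 6, and 0.85 in the FEAT normal liver, against -0.15 in the wild-type liver. Removal of the brightness trend left the liver without tumour at 0.73, against -0.18 for wild type.

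The liver without tumour was set against the wild-type liver by itself, as 1 array against 1, without a test. It was at least 0.4 higher in 868 windows (1.97%) and at least 0.4 lower in 646 (1.47%). Of these, 9 higher and 9 lower windows passed 0.4 in all 6 tumours too, before the condition that the wild-type array lie near 0. In 302 higher and 132 lower windows no tumour passed. The counts were 356 and 251 without the brightness trend, and 834 and 819 with the repeated constants taken as missing. Segmentation called 5 short losses in the FEAT normal liver alone, each of 5 probes. The lowest were at L35549 on chromosome 6 (-1.67, wild type 0.03), Prm1, a protamine of sperm chromatin (-1.67, wild type 0.14), P140 (Srcin1 in RefSeq, a signalling adaptor; -1.62, wild type -0.04) and Anapc2 to Grin1 (-1.58, wild type 0.28). In this last segment only the BC004853, AK142669 and Grin1 probes were low in the FEAT normal liver, at -1.74, -1.58 and -1.93. The BC004853 and AK142669 probes overlap in position. The Anapc2 probe lay at -0.19 (wild type -0.17) and the AK019803 probe at 0.05 (wild type 0.19), so neither was low. At L35549 the 6 tumours lay between -0.22 and 0.06, and at P140 tumour 6 was at -1.01. At Prm1 the 6 tumours lay between -0.64 and 0.00, all below the wild-type array. At Anapc2 to Grin1 they lay between -0.43 and 0.41. Tumour 6 was the lowest tumour at Prm1, P140 and Anapc2 to Grin1. Over all probes, tumour 6 and the FEAT normal liver were the most alike pair of arrays (r = 0.76, and 0.58 with the brightness trend removed). At the fifth, Abcc8, a subunit of the ATP-sensitive potassium channel, the FEAT normal liver was at -0.83 and tumours 4 and 6 were at -0.88 and -0.83. Its probes were bright, at a median percentile of 87.7, and with the brightness trend removed these 3 arrays were at -0.34, -0.25 and -0.41. The other 4 losses were then between -1.55 and -1.46 in the FEAT normal liver.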

How the data were processed

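The deposited value table holds 1 column per array, in log2 units per the values. For the wild-type array, whose scanner file was deposited, the column equalled minus the scanner's log10 ratio (Cy5 over Cy3, per the file headers) turned to log2 (r = -1.00 over probes), so values are test over reference. For the other 7 arrays this direction was not checked against a scanner file, but all pairs of arrays correlated above 0 over probes (r from 0.26 to 0.76). The submitters' processing notes name Agilent Feature Extraction, and the series' text names CGH analytics. The deposited processed intensities of the wild-type scanner file were used only for brightness.

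Repeated spots were averaged, and 19 autosomes were kept, each array centred on its median (99.6% of the probes were well above background on the wild-type array). Repeated constants in the deposited values of the FEAT normal liver and tumour 3 were kept, and taken as missing (values held by at least 100 spots) as an alternative added after seeing the data. Sex chromosomes were not analysed here. Windows held 5 probes with at least 3 values. limma 3.58.1 (R 4.3.3; lmFit, eBayes with trend, Benjamini-Hochberg over all features) tested 7 FEAT arrays against 1 wild-type array; segmentation used a penalty factor of 2, at least 5 probes and values clipped at 3 noise SDs. In simulated windows for the FEAT against wild-type comparison, limma recovered 87% of 200 planted shifts of -1.0, and 0% of shifts of -0.5. The simulated noise was normal with 1 spread per array, so it lacked the large errors that the variance trend gave low windows. The real windows of the chromosome 14 loss had SEs of 0.55 to 0.83 and were not called. The simulation therefore does not show how often this fit would find such a loss. For Slc25a37 to Loxl2, Grm4, Tcte3 and AK007175, region ends were found by extending over neighbouring probes, bridging 1 probe. They are the outermost probes at which all FEAT arrays differed from wild type by at least 0.2. The other regions have the ends of their shortest called segment. Brightness bins (20) came from the wild-type array.

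Named were genes in regions shared by 7 arrays, in focal segments of at least 2 FEAT arrays, up to 10 called probes, 5630401D24Rik, the lists tied to the regions and, of other lists, called genes; genes at the ends of a list's range are given besides. Members, regions and lists were chosen with earlier results of these data known. Each array is 1 mouse per the labels; the array number limits precision. RefSeq (GRCm38.p6) served for names and gene order only. Some genes of the lists are not reported here.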

Additional observations from a re-analysis of the deposited data

Results flagged for a closer look

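Among the 6 tumours, 17 loci or probes were examined for 1 array far from the rest by Dixon's test at the 95% level, and 4 stood out. Chance gives about 1 in 20 for loci not picked from their values, but these were picked from them, and BC040066 because its segment was called in tumour 1 and in no other tumour, so that rate does not apply here. Tumour 1 was the lowest of the tumours in 3 of them. It lay at -1.24 over the chromosome 14 loss from Slc25a37 to Loxl2, where the next tumour was at -0.99, and with the running median subtracted it lay at -0.92, as did tumour 6. It lay at 0.74 inside AK007175, where the next was at 1.01, and at 0.98 with the running median subtracted. It lay at -0.70 at BC040066, where the next was at -0.34, and at -0.51 with the running median subtracted, where the next was at -0.32. Tumour 4 lay at -0.22 at L35549, with the next at -0.04. Their causes were not tested.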

How the results depend on the processing

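Most counts moved with the settings, while the chromosome 14 loss was found as a shared region under every window setting run. The limma window count of 0 was 0 under all settings run but 2. Setting the 7 FEAT arrays against 0 in place of the wild-type array gave 13296 windows, 102336 probes and 8081 genes. Leaving out the variance trend and the brightness trend together, chosen after seeing the data, gave 1 window and 0 genes. Against 18 probes, the 3-group model gave 8 and removal of the brightness trend 4. Against 2 genes, 0 were called with 3 groups, without the variance trend, with the local baseline and with the GC trend removed, and 1 with values as deposited and with the brightness trend removed.

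Against 8 shared windows, there were 29 at a threshold of 0.3 and 5 at 0.6, 15 with windows of 3 probes, 3 with windows of 10, and 43 and 65 with sliding windows of 5 and 3 probes. The Grm4 region was found at 0.3, 0.6, as deposited, with either trend removed, the local baseline and sliding windows, but not with windows of 3 or 10 probes or shifted by 2; the Tcte3 region was not found at 0.6, with 10 probes or the local baseline. Against 8 shared probes there were 59 at 0.7, 1 at 1.5 (the chromosome 7 probe), 4 as deposited and 3 with the brightness trend removed. Against 22 focal regions there were 289 at penalty factor 1, 6 at 4 and 42 with the brightness trend removed. Against 1514 windows past 0.4 in the FEAT normal liver, there were 4735 at 0.3, 132 at 0.6, 5961 with 3 probes, 60 with 10 and 607 with the brightness trend removed.

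Leaving out 1 FEAT array at a time gave 0 windows, 8 to 22 probes and 0 to 1 genes by limma, 8 to 10 shared windows and 8 to 11 shared probes. Differences from wild type ran from -0.97 to -0.92 at the chromosome 14 loss and from 0.80 to 0.89 at Grm4, 0.64 to 0.70 at Tcte3 and 0.85 to 0.94 inside AK007175. No paired analysis was possible because the wild-type group has 1 array. With the repeated constants as missing, all these counts stayed within 1.5 times. One wild-type array, and probes with constants or steep brightness trends, limit these comparisons.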

Other observations

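The loci that all FEAT livers carried differed in how even they were. After each array's running median was subtracted, the 7 FEAT values of the chromosome 14 loss covered -0.92 to -0.84, those inside AK007175 0.98 to 1.29, those of the Tcte3 gain 0.44 to 0.76, and those of the Grm4 gain 0.56 to 1.01. With the brightness trend removed in place of this, the loss covered -1.15 to -0.67. Noise differed between arrays and the loci differ in probe number, so the spreads cannot be set against each other by a test.

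Of the 4 loci with several probes and lower or higher values in all 7 FEAT livers that were matched to RefSeq neighbours, 3 (Slc25a37 to Loxl2, Tcte3 and C330003B14Rik) lie where RefSeq lists more than 1 gene of the same name root, and the Grm4 locus does not. This is a description of 4 loci chosen from the values. How often other intervals hold genes of the same name root was not counted, so these loci cannot be set against the genome. The gain inside AK007175 was not matched to RefSeq. C330003B14Rik was not shared under the main rule. With the brightness trend removed, tumour 3 and the FEAT normal liver were at -0.08 there, near the wild-type value of -0.05.

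The 6 focal segments of the wild-type array were not all its own. At CL256474 on chromosome 11 its median was 0.47, and the FEAT arrays lay between 0.02 and 0.74. At AK034519 and Cxxc4 on chromosome 3 it was -0.59, below all FEAT arrays (-0.31 to 0.16).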
